A study of Mus musculus with 30 samples.

Results

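Proliferation was read from 41 cell cycle genes, chosen by gene symbol, in tumors of 5 lines. Of these, 17 act mainly in the licensing and copying of DNA in S phase and 24 mainly before and during mitosis. All 41 were found among the 48440 genes of the count table, and all 41 were among the 16862 genes that passed the filter on low counts. The lowest count of any of them in a single tumor was 312, for Ccne1.

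RNA was sequenced in bulk from 30 tumors that 5 primary cell lines formed in C57BL/6 mice, and the study asked what separates lines whose growth is restrained by NK1.1+ cells from lines whose growth is not. Each line came from 1 fibrosarcoma induced by MCA (methylcholanthrene, a chemical carcinogen), was cultured briefly and was injected under the skin, and CD45+ cells were removed with beads before RNA extraction. MCA-943 (4 tumors) and MCA-969 (8 tumors) were non-sensitive to NK1.1+ cells, and MCA-948 (8 tumors), MCA-970 (6 tumors) and MCA-972 (4 tumors) were sensitive. The series covers growth in wild-type and in NK cell-deficient animals, and a letter in the tumor names, W or a, has no meaning given in the sources used here. The strain given for MCA-943 is Ncr1Cre, a Cre driver active in NK cells and related innate lymphocytes, and for the other 4 lines it is Ncr1Cre R26DTA, in which Cre switches on a toxin. The study's methods name such mice as those in which the primary tumors arose and C57BL/6 mice as hosts of the lines, so the strain likely names the mouse of origin, although the labels do not say so. Of the MCA-969 tumors, 2 are labelled as sensitive, unlike the rest of the line, namely W-2D and W-1D. They were kept with MCA-969, and counts are also given without them. Because sensitivity belongs to the line, 2 lines stood against 3, and the smallest exact permutation p that such a design can give is 0.1.

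Per tumor, the counts in genes summed to between 27745104 and 46537062. Levels are given as counts per 1000000 counts (CPM) on the TMM scale, with the SD among tumors of that line, and differences are log2 fold changes with their standard errors. A gene passed a test at a Benjamini-Hochberg adjusted p under 0.05 in edgeR's quasi-likelihood test. Library numbers fell into 3 runs: 6 tumors of MCA-969 and all 4 of MCA-972 were in run 1, all 6 of MCA-970 with 2 each of MCA-948 and MCA-969 in run 2, and all 4 of MCA-943 with 6 of MCA-948 in run 3. Here a run is a block of library numbers, and it was taken as a possible batch without a label that names it. The 8 mesenchymal markers, among them Vim and Col1a1, summed to between 9561 and 62020 CPM in every tumor, and the 3 keratinocyte and 3 skeletal muscle markers to at most 8.47 and 12.5 CPM. The 7 endothelial markers summed to between 261 and 499 CPM in MCA-970 and between 20.8 and 449 CPM in the other lines. Cdh5 alone had a mean of 236 CPM in MCA-970. The 15 leukocyte markers summed to between 16.6 and 292 CPM. Of these, Cd3e and Ncr1 were each at 0 in 15 tumors, whereas Ptprc, Csf1r and Lyz2 were present in every tumor. Csf1r reached 44.0 CPM and Lyz2 158 CPM.

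The cell cycle copies the genome in S phase and divides it in mitosis, and cyclin-dependent kinases (CDKs) drive the passage between them. Genes needed for DNA replication are switched on mainly by E2F factors when the retinoblastoma protein is inactivated. Genes needed for mitosis rise later, through the MuvB complex with B-Myb and FoxM1 at promoters that carry a cell cycle homology region (CHR) and CCAAT boxes. Because cells outside the cycle express most of these genes weakly, their RNA is widely used as a measure of proliferation in tumors.

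Promoters were taken from RefSeq (GRCm38.p6) as the 250 bases before and 50 bases after a gene's start, and they were held for 32 of the 41 genes. They were searched on both strands for the CHR (TTTGAA), the CCAAT box (CCAAT) and an E2F motif in 4 spellings. The first spelling was TTCCCGC and the second was TTGGCGC. The third spelling was TTCGCGC and the fourth was TTGCCGC. These motifs can overlap each other, and a match is a description of the letters, not a binding site. The E2F motif was present in 9 of 14 S phase promoters (64.3%), in 3 of 18 mitosis promoters (16.7%) and in 10.9% of all 27025 genes' promoters. The CHR was the reverse, with 12 of 18 mitosis promoters (66.7%), 1 of 14 S phase promoters (7.14%) and 20.2% of all. CCAAT boxes were in 16 mitosis promoters (88.9%) and 9 S phase promoters (64.3%), against 41.1% of all, and all 12 mitosis promoters with a CHR also had a CCAAT box, a pair found in 8.97% of all promoters.

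**Figure D1:**
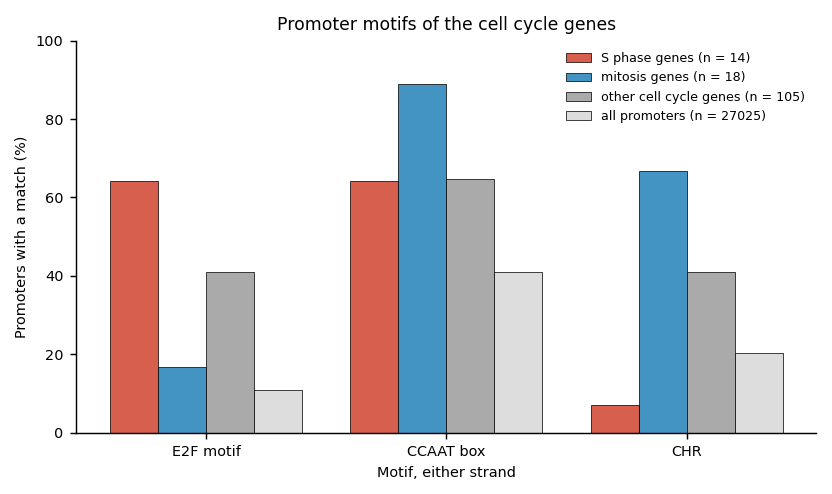
Share of promoters (%, vertical axis) with at least 1 match to each motif on either strand (horizontal axis), for 14 S phase genes, 18 mitosis genes, 105 other cell cycle genes and all 27025 genes with a promoter. The E2F bar is highest for the S phase genes (64.3%) and the CHR bar for the mitosis genes (66.7%).

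The 200 bases before the start of 5 genes are shown to make this division visible, with every motif match in capitals. Mcm6 (chr1:128359706-128359905, minus strand) and Mcm5 (chr8:75109309-75109508, plus strand) encode subunits of the replicative helicase. Cdk1 (chr10:69352913-69353112, minus strand), the kinase that starts mitosis, and Mki67 (chr7:135716380-135716579, minus strand), the gene of the Ki-67 proliferation marker, have CHRs and CCAAT boxes. Mybl2 (chr2:163054435-163054634, plus strand), which encodes B-Myb, had the widest range among lines and no match to the spellings searched in this window. Other spellings of the motifs were not searched, so this does not show that the promoter lacks such an element.
Mcm6: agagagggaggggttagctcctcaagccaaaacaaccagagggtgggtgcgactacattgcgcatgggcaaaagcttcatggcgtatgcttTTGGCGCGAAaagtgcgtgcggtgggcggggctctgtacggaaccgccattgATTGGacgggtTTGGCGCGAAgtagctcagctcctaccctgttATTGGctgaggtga
Mcm5: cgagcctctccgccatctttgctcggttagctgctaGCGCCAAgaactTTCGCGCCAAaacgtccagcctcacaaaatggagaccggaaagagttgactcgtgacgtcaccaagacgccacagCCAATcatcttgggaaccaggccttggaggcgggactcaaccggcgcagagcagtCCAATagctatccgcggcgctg
Cdk1: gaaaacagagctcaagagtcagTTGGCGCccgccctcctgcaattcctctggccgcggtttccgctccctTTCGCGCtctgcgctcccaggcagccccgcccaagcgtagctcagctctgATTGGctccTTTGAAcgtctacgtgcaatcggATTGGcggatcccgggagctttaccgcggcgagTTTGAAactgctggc
Mki67: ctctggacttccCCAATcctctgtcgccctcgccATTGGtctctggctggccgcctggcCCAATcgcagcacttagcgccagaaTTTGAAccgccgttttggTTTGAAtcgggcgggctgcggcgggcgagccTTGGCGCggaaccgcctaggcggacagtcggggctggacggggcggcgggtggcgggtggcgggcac
Mybl2: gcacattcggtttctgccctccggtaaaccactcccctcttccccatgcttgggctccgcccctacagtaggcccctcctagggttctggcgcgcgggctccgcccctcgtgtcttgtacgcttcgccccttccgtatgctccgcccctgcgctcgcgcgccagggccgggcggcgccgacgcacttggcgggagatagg
The capitals of the helicase genes are E2F motifs, some overlapping, and CCAAT boxes. Those of Cdk1 and Mki67 include 2 CHRs each, and also 2 and 1 E2F motifs.

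Across the 5 lines, 40 of the 41 genes differed by the F-test of the line, and 94.1% of all genes tested did so. The share was close to that of genes in general, and the 94.1% is also the background of the counts by role below. Between the highest and the lowest line mean, the genes spanned a median of 0.81 on the log2 scale (1.75-fold), against 1.15 (2.22-fold) over all genes. A span of at least 1 was seen in 11 of the 41 genes (26.8%) and in 57.9% of all genes. Bulk RNA does not tell fewer cycling cells from less of each RNA per cycling cell.

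By mean log2 CPM, MCA-948 was the highest line for 27 of the 41 genes and MCA-970 the lowest for 21. Over all genes tested, MCA-948 was highest for 22.7% and MCA-970 lowest for 19.1%, and MCA-943 was highest for 26.5% and lowest for 25.3%. By group, MCA-948 was highest for 16 of 17 S phase genes and 11 of 24 mitosis genes, and MCA-943 was highest for 8 mitosis genes and for no S phase gene. At the low end, MCA-970 held 16 mitosis and 5 S phase genes, and MCA-943 held 8 S phase and 3 mitosis genes.

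**Figure D2:**
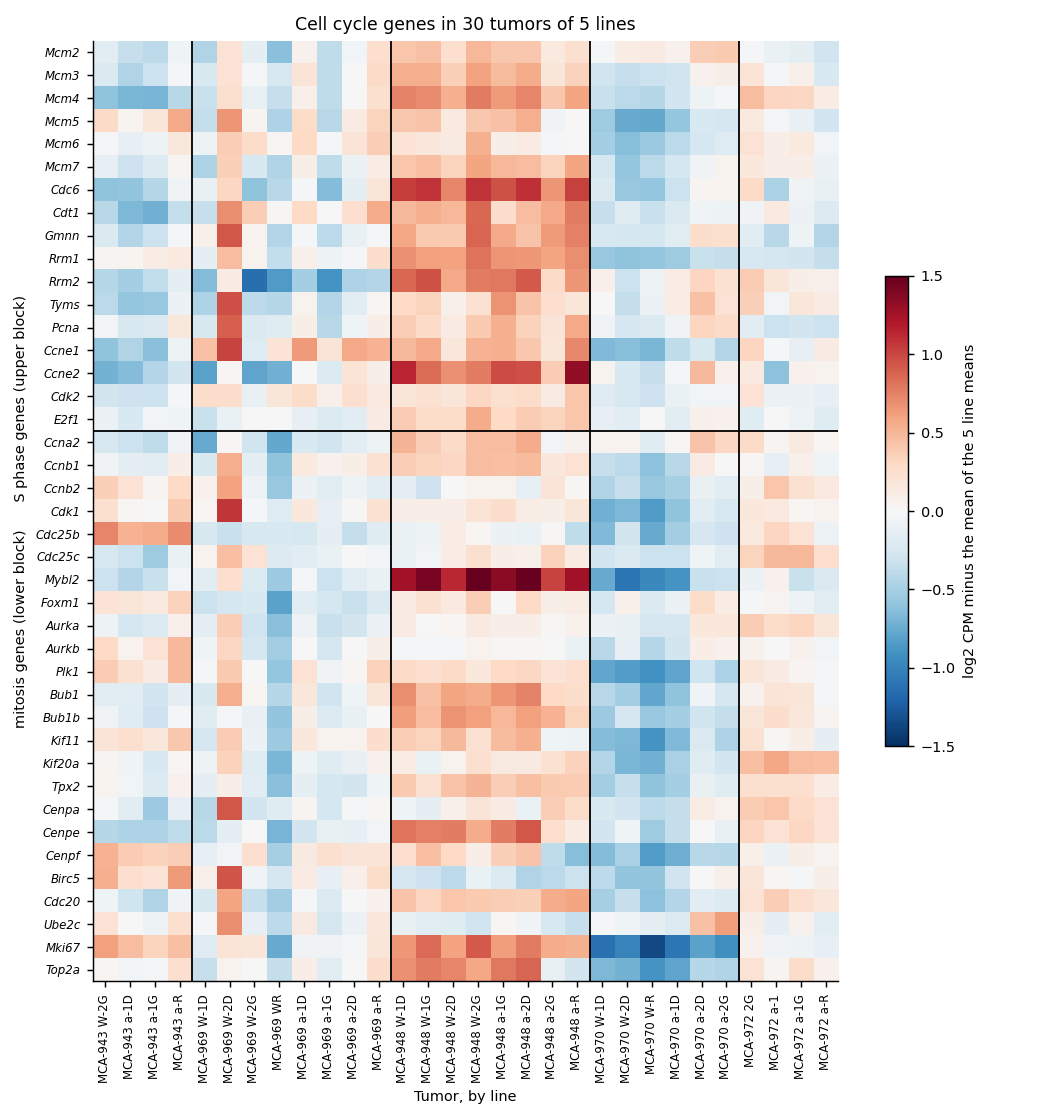
Log2 CPM of the 41 genes (rows, S phase above and mitosis below the horizontal line) in the 30 tumors (columns, lines divided by vertical lines), minus the mean of the 5 line means of each gene. Most S phase genes are red in MCA-948 and most mitosis genes blue in MCA-970, and MCA-969 W-2D differs from the rest of its line.

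The 9 genes of replication licensing and the helicase all differed among lines, with spans from 0.59 to 1.38. MCA-948 was highest for 8 of them, the exception being Mcm6, and MCA-943 was lowest for 5. Mcm2, Mcm3 and Mcm7, further helicase subunits, were at 155 ± 12.7, 161 ± 15.2 and 173 ± 12.1 CPM in MCA-948, and Mcm6 was at 265 ± 32.1 CPM in MCA-969 and 175 ± 21.6 in MCA-970. Gmnn, the inhibitor of licensing, was at 31.2 ± 3.84 CPM in MCA-948 and between 17.3 and 21.8 CPM elsewhere. Cdc6 encodes the loader that places the helicase on origins. In MCA-948 its lowest, median and highest values were 34.7, 44.7 and 46.6 CPM, against 13.9, 19.95 and 27.1 CPM in MCA-969 and 14.6, 18.1 and 22.7 CPM in MCA-970. The 4 MCA-943 tumors had 14.3, 14.5, 16.3 and 21.01 CPM and the 4 MCA-972 tumors 15.6, 20.1, 20.96 and 26.6 CPM. Every MCA-948 tumor was thus above every other tumor, while the other 4 lines overlapped. The log2 fold change of MCA-948 was 1.21 ± 0.15 (SE) over MCA-970 and 1.04 ± 0.17 over MCA-972, and relative to MCA-948 it was -1.37 ± 0.17 in MCA-943 and -1.12 ± 0.13 in MCA-969, with edgeR adjusted p between 2.56e-08 and 4.94e-06.

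Mcm4, a helicase subunit, was graded over the lines: 280 ± 24.1 CPM (SD, n = 8) in MCA-948, 222 ± 22.1 (n = 4) in MCA-972, 172 ± 30.5 (n = 8) in MCA-969, 151 ± 18.1 (n = 6) in MCA-970 and 118 ± 10.99 (n = 4) in MCA-943. All neighbours in this order passed the test except MCA-969 and MCA-970, whose adjusted p was 0.0855. The lowest, median and highest values were 236, 286 and 307 CPM in MCA-948, 137, 173 and 212 CPM in MCA-969 and 133, 145 and 176 CPM in MCA-970, and the other tumors had 110.3, 112, 118 and 134 CPM in MCA-943 and 193, 223, 224 and 247 CPM in MCA-972. MCA-948 overlapped with MCA-972 only. Mcm5 had a different order, with 135 ± 20 CPM in MCA-948 and 133 ± 21.2 in MCA-943, and 77.2 ± 12.8 in MCA-970. MCA-970 was lower than each of the other lines for Mcm5, with log2 fold changes of 0.81 ± 0.15 for MCA-948 over MCA-970, 0.79 ± 0.17 for MCA-943, 0.58 ± 0.15 for MCA-969 and, as MCA-970 over MCA-972, -0.45 ± 0.17 (adjusted p between 2.12e-05 and 0.0347 by edgeR). Within run 2, MCA-948 over MCA-970 was 0.50 (adjusted p = 0.0986). Its lowest, median and highest values were 106, 145 and 159 CPM in MCA-948, 79.7, 116 and 173 CPM in MCA-969 and 64.2, 74.4 and 93.5 CPM in MCA-970, and the single tumors had 113, 124, 133 and 162 CPM in MCA-943 and 89.4, 102, 108 and 121 CPM in MCA-972, so that MCA-970 overlapped with MCA-969 and MCA-972 and not with MCA-943 or MCA-948. Cdt1, the partner of Cdc6 in loading, was below every other tumor in all 4 MCA-943 tumors, at 38.6 ± 4.84 CPM against line means from 48.7 to 82.9 CPM.

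Each of the 4 genes of nucleotide supply and the sliding clamp was highest in MCA-948. Rrm2 encodes the regulated subunit of ribonucleotide reductase, which makes deoxynucleotides. It had a lowest, median and highest value of 86.6, 122.8 and 138.2 CPM in MCA-948, 56.7, 75.9 and 89.4 CPM in MCA-970, and 32.6, 47.9 and 77.7 CPM in MCA-969. In MCA-972 the 4 tumors had 75.3, 75.4, 80.9 and 92.6 CPM and in MCA-943 they had 50.2, 53.0, 55.0 and 64.2 CPM. Both non-sensitive lines had lower means than the 3 sensitive lines, but single tumors overlapped. The partner subunit Rrm1 was at 302 ± 15.04 CPM in MCA-948, above every other tumor, and at 135 ± 11.4 CPM in MCA-970. Pcna, the sliding clamp of the replication fork, varied less. Its lowest, median and highest values were 152, 179.7 and 208 CPM in MCA-948, 105, 129 and 261 CPM in MCA-969 and 118, 135 and 176 CPM in MCA-970, with 118, 120.3, 136 and 157 CPM in MCA-943 and 112, 112, 116 and 124 CPM in MCA-972. MCA-948 was above MCA-972 in every tumor, by 0.63 ± 0.17 on the log2 scale (adjusted p = 0.00144 by edgeR), and with the run as a covariate this difference was 0.12 (adjusted p = 0.781). Tyms, thymidylate synthase, spanned 0.72 on the log2 scale (adjusted p = 0.019 over the lines by edgeR).

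All 9 cyclins, CDKs and CDC25 phosphatases differed among lines, with spans from 0.48 (Cdk2) to 1.40 (Ccne2). Cyclin E, which brings Cdk2 into play at the start of S phase, has 2 genes with unlike orders. Ccne2 was highest in MCA-948 at 43.6 ± 8.62 CPM and at 16.3 ± 2.30 to 23.6 ± 4.99 CPM in the other lines, and its MCA-948 values began at 30.2 CPM, inside the range of MCA-970. The lowest, median and highest values of Ccne2 were 30.2, 43.5 and 58.3 CPM in MCA-948, 13.3, 21.65 and 26.7 CPM in MCA-969 and 18.3, 23.4 and 32.6 CPM in MCA-970. The tumors had 14.2, 14.7, 17.1 and 19.2 CPM in MCA-943 and 15.2, 24.1, 24.3 and 25.8 CPM in MCA-972. Ccne1 was highest in MCA-969 (25.2 ± 6.23 CPM) and MCA-948 (25.1 ± 3.23 CPM), and its difference between these lines was 0.00 ± 0.12 on the log2 scale (adjusted p = 0.977 by edgeR). It was at 19.4 ± 2.70 CPM in MCA-972, 13.6 ± 2.52 in MCA-943 and 12.9 ± 1.65 in MCA-970, and the last 2 did not differ beyond their spread (adjusted p = 0.683). Single tumors had 20.5, 25.9 and 30.1 CPM in MCA-948, 16, 25.6 and 36.9 CPM in MCA-969 and 11.3, 12.6 and 15.4 CPM in MCA-970 as lowest, median and highest, and 11.8, 12.03, 13.3 and 17.2 CPM in MCA-943 and 16.7, 17.9, 19.9 and 22.9 CPM in MCA-972. Every MCA-969 and MCA-948 tumor was above every MCA-970 tumor, while MCA-943 overlapped with MCA-969, MCA-970 and MCA-972. Cdk2, the partner of cyclin E, was at 48.8 ± 3.14 CPM in MCA-948 and 35.1 ± 3.58 in MCA-943.

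Ccna2 encodes cyclin A, which acts in S phase and into mitosis. The lowest, median and highest values of Ccna2 were 101.1, 143 and 173.6 CPM in MCA-969, 167, 229 and 253 CPM in MCA-948 and 151.6, 178 and 230.5 CPM in MCA-970, the MCA-943 tumors had 131.8, 137, 145 and 165 CPM, and the MCA-972 tumors had 174, 176, 188 and 209 CPM. The means of both non-sensitive lines were below those of all sensitive lines, and tumors overlapped. Cdk1 and Ccnb1, the kinase and cyclin that together trigger mitosis, were lowest in MCA-970, at 64.0 ± 12.6 and 63.4 ± 12.6 CPM. For Cdk1 the other 4 line means lay between 98.1 and 106 CPM with no pair of them past the test, and MCA-970 was lower than each (adjusted p between 7.3e-05 and 0.00285 by edgeR). With the endothelial and leukocyte markers as covariates, MCA-943 over MCA-970 was 0.51 on the log2 scale (adjusted p = 0.0535 by edgeR), and the difference of Cdk1 over the lines had an adjusted p of 0.0865. The lowest, median and highest values were 97.8, 98.97 and 110.1 CPM in MCA-948, 80.2, 93.6 and 194 CPM in MCA-969 and 50.9, 58.9 and 81.5 CPM in MCA-970, and the remaining tumors had 91.2, 93.2, 108 and 121 CPM in MCA-943 and 93.4, 95.02, 101 and 103 CPM in MCA-972. Only MCA-969, whose lowest tumor was at 80.2 CPM, overlapped with MCA-970. For Ccnb1, MCA-948 was highest at 96.3 ± 7.72 CPM and was above each other line (adjusted p at most 0.0208 by edgeR), while within run 2 its log2 difference to MCA-970 was 0.45 (adjusted p = 0.107). Its lowest, median and highest values were 84.5, 96.03 and 105 CPM in MCA-948, 49.5, 79.8 and 109.9 CPM in MCA-969 and 49.1, 58.5 and 82.3 CPM in MCA-970, and 67.8, 68.4, 72.5 and 81.2 CPM in MCA-943 and 69.1, 72.3, 76.3 and 79.8 CPM in MCA-972, with MCA-948 above all of MCA-943, MCA-970 and MCA-972. Ccnb2, the second cyclin B, was at 75.7 ± 6.94 CPM in MCA-943 and 75.4 ± 7.88 in MCA-972 and at 50.8 ± 6.77 in MCA-970.

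Cdc25b, a phosphatase that activates CDKs at the onset of mitosis, had yet another order. The 4 MCA-943 tumors had 60.4, 61.8, 68.5 and 69.8 CPM and were above all 26 others, of which the highest had 52.7 CPM. The log2 fold change of MCA-943 was 1.08 ± 0.10 over MCA-970, 0.87 ± 0.09 over MCA-969, 0.70 ± 0.09 over MCA-948 and 0.47 ± 0.11 over MCA-972, and all 4 passed by edgeR. Cdc25b was the only one of the 41 genes to stand above every other tumor in MCA-943, where 9.76% of all genes did. Counts of genes above every other tumor were 5 for MCA-948 (Cdc6, Rrm1, E2f1, Mybl2 and Bub1b; 3.07% of all genes), 1 for MCA-972 (Kif20a; 4.07%), 0 for MCA-969 (1.56%) and 0 for MCA-970 (3.9%). Below every other tumor were Mcm6, Mki67 and Top2a in MCA-970 (2.94% of all genes), Cdt1 in MCA-943 (6.5%), and none in MCA-948 (4.8%), MCA-969 (1.03%) and MCA-972 (3%). Cdc25c, the related phosphatase that acts on Cdk1, was highest in MCA-972 (24.5 ± 2.08 CPM) and lowest in MCA-943 (15.2 ± 1.88 CPM).

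Of the 3 transcription factors, Mybl2 had the largest span of all 41 genes, 2.03 on the log2 scale or 4.1-fold. Its product B-Myb joins the MuvB complex and, like E2f1, is itself made around the entry into S phase. Mybl2 was counted among the mitosis genes and E2f1 among the S phase genes, so that the mitosis counts and means of MCA-948 include Mybl2. Mybl2 (chr2:163054687-163084688) had a lowest, median and highest value of 53.0, 65.2 and 76.5 CPM in MCA-948, 18.1, 23.5 and 31.3 CPM in MCA-969 and 12.3, 14.9 and 21 CPM in MCA-970. In MCA-943 the tumors had 19.3, 20.9, 21.1 and 25.6 CPM, and in MCA-972 20.9, 22.7, 24.7 and 27.5 CPM. No MCA-948 tumor overlapped with another line. The log2 fold change of MCA-948 was 2.01 ± 0.13 over MCA-970 and 1.45 ± 0.14 over MCA-972, and MCA-943 and MCA-969 were lower than MCA-948 by log2 differences of -1.60 ± 0.15 and -1.46 ± 0.11 (edgeR adjusted p at most 6.99e-10). The other 4 lines lay closer together, with MCA-970 below each of them.

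E2f1 had a smaller span of 0.47. It was at 47.0 ± 3.19 CPM in MCA-948, with every tumor above every other, and between 33.8 and 35.2 CPM in the other 4 lines, among which no pair passed the test (adjusted p at least 0.53 by edgeR). Its lowest, median and highest values were 44.1, 46.5 and 53.7 CPM in MCA-948, 28.8, 33.5 and 39.5 CPM in MCA-969 and 32.5, 34.9 and 38.2 CPM in MCA-970, against 30.9, 34.2, 34.8 and 35.5 CPM in MCA-943 and 31.96, 32.1, 34.4 and 36.5 CPM in MCA-972. Foxm1 encodes the third factor. It was highest in MCA-943 (90.5 ± 5.77 CPM) and MCA-948 (87.6 ± 7.54 CPM) and lowest in MCA-969 (62.5 ± 7.72 CPM), where the single tumor WR had 44.4 CPM.

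**Figure D3:**
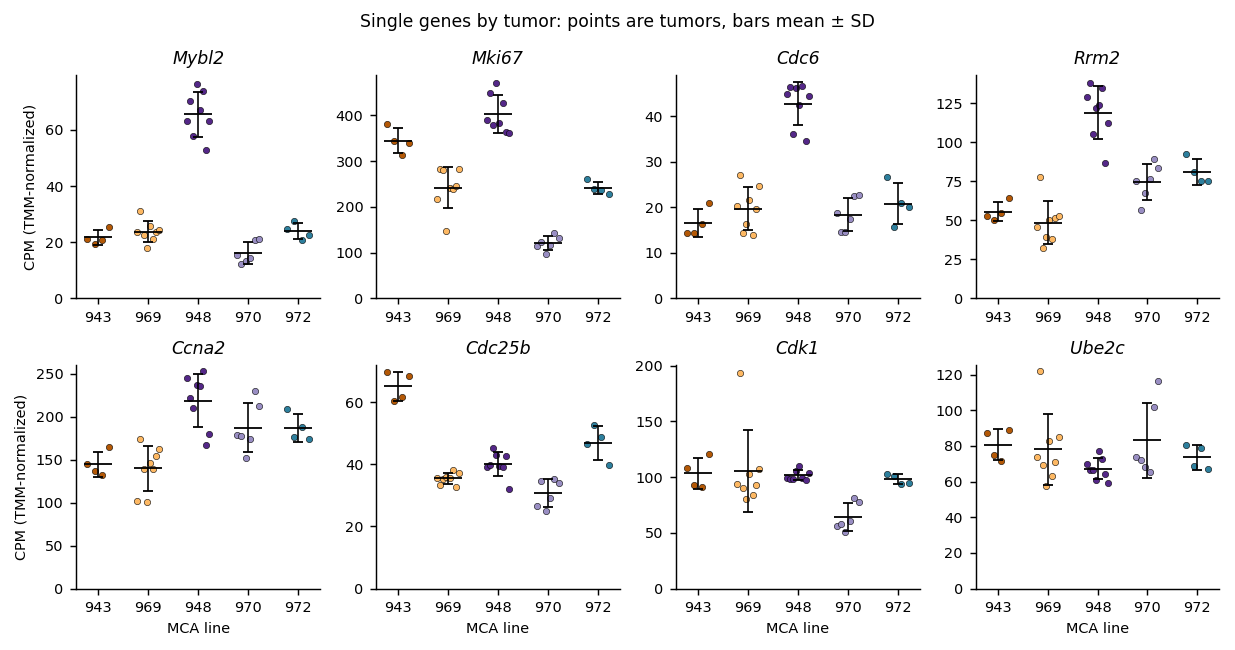
CPM per tumor (points) with the mean and SD of each line (bars) for 8 genes, by line (horizontal axis; MCA-943 and MCA-969 are non-sensitive). Mybl2 and Cdc6 are high in every MCA-948 tumor, Mki67 and Cdk1 low in MCA-970, Cdc25b high in MCA-943, and Ube2c overlaps throughout. The isolated MCA-969 point in Rrm2, Cdk1 and Ube2c is W-2D.

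The 5 mitotic kinases and spindle checkpoint genes all differed, and 4 of them were lowest in MCA-970. Plk1, a kinase of mitotic entry and centrosomes, was at 32.7 ± 5.71 CPM in MCA-970 and between 54.5 and 64.4 CPM elsewhere. Bub1b, the checkpoint protein BubR1, was highest in MCA-948 at 167 ± 12.6 CPM, above every other tumor. Bub1, the checkpoint kinase, followed the same order at its ends, with 87.4 ± 10.7 CPM in MCA-948 and 44.96 ± 8.22 in MCA-970. Aurka and Aurkb, the Aurora kinases of spindle poles and of centromeres, had some of the smallest spans, 0.47 and 0.44. Aurka was highest in MCA-972 (56.0 ± 3.29 CPM), followed by MCA-948 (48.2 ± 1.74), MCA-970 (44.2 ± 5.80), MCA-943 (42.4 ± 4.44) and MCA-969 (40.99 ± 8.56). Its tumors had 45.7, 48.4 and 50.4 CPM in MCA-948, 29.7, 39.4 and 59.1 CPM in MCA-969 and 38.4, 42.8 and 51.4 CPM in MCA-970 as lowest, median and highest values and 38.3, 39.6, 43.5 and 48.2 CPM in MCA-943 and 51.9, 55.3, 57.1 and 59.7 CPM in MCA-972, so that MCA-972 was above MCA-943, MCA-948 and MCA-970 in every tumor and overlapped with MCA-969. Aurkb was highest in MCA-943 (45.4 ± 5.65 CPM) and lay between 33.6 ± 5.44 and 38.0 ± 1.38 CPM in the other lines, among which no pair passed. Single tumors had 35.1, 37.3 and 38.95 CPM in MCA-948, 26.2, 36.7 and 46.8 CPM in MCA-969 and 27.9, 32.9 and 40.4 CPM in MCA-970 and 39, 43.8, 46.4 and 52.5 CPM in MCA-943 and 36.4, 37.4, 39.2 and 39.2 CPM in MCA-972, and MCA-943 overlapped with MCA-969, MCA-970 and MCA-972. Its difference over the lines (adjusted p = 0.0136 by edgeR) was lost without MCA-943 a-1G (0.0518) and without MCA-943 a-R (0.0936), and with the endothelial and leukocyte markers as covariates (0.0568). MCA-943 over MCA-970 was then 0.29 on the log2 scale (adjusted p = 0.118), and with run in the model it was 0.38 (adjusted p = 0.0835).

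Spindle motors and assembly factors Kif11, Kif20a and Tpx2 were each lowest in MCA-970, at 53.6 ± 8.85, 87.7 ± 12.99 and 105 ± 14.5 CPM. Kif20a, a kinesin of cytokinesis, was at 169 ± 7.72 CPM in MCA-972, above every other tumor, and it overlaps Cdc23 on the other strand. In the centromere group, Cenpa, the centromeric histone, was highest in MCA-972 (90.3 ± 5.89 CPM) and lowest in MCA-943 (62.6 ± 9.24 CPM). Cenpe, a kinetochore motor, was lowest in MCA-943 (96.2 ± 2.66 CPM) and highest in MCA-948 (203 ± 37.2 CPM), whereas Cenpf was highest in MCA-943 (81.4 ± 4.67 CPM) and lowest in MCA-970 (40.9 ± 4.86 CPM). Birc5, survivin of the chromosomal passenger complex, was higher in MCA-943 (55.5 ± 8.14 CPM) than in MCA-948 (33.8 ± 2.78) and MCA-970 (34.4 ± 6.96). Cdc20, the activator of the anaphase-promoting complex, was highest in MCA-948 (134 ± 9.33 CPM), and Ube2c, its ubiquitin-conjugating enzyme, was the only one of the 41 that did not pass over the lines (adjusted p = 0.206 by edgeR), with line means from 67.2 ± 5.93 to 83.0 ± 21.1 CPM. Its lowest, median and highest values were 59.5, 66.6 and 77.2 CPM in MCA-948, 57.4, 72.5 and 122 CPM in MCA-969 and 65.3, 73.2 and 116 CPM in MCA-970, the rest had 71.3, 75.1, 87.5 and 89.1 CPM in MCA-943 and 66.8, 68.5, 78.7 and 80.5 CPM in MCA-972, and all 5 lines overlapped.

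Mki67 spanned 1.74 on the log2 scale (3.34-fold), the largest span after Mybl2. From lowest to median to highest, the values were 361.5, 386 and 471 CPM in MCA-948, 147.5, 243 and 283 CPM in MCA-969 and 97.0, 120.7 and 142.7 CPM in MCA-970, with 314, 339, 344 and 382 CPM in the MCA-943 tumors and 229, 236.5, 240.1 and 261 CPM in those of MCA-972. All MCA-970 tumors were below all others. MCA-948 and MCA-943 did not pass against each other (-0.23 ± 0.12, adjusted p = 0.1 by edgeR), nor did MCA-969 and MCA-972 (0.00 ± 0.12, adjusted p = 0.986), and every other pair of lines passed. Top2a, the topoisomerase of dividing cells, was also lowest in MCA-970 (254 ± 32.1 CPM). In MCA-948 its SD was 152 CPM around a mean of 586, the widest of any line. Per kilobase of gene length, averaged over the lines, the levels ran from 4.11 CPM for Cenpf to 59.7 CPM for Pcna. Genes annotated on the other strand overlap 13 of the 41, among them Mki67, Top2a, Plk1, Cenpf, Ccne2 and Cdc25b, and reads of such pairs cannot be told apart here because the strand setting of the counting is not stated.

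The mean log2 CPM of the 17 S phase genes and of the 24 mitosis genes was computed in each tumor, as a description with no test. The S phase mean was 6.57 ± 0.11 in MCA-948 and between 5.83 ± 0.15 and 6.05 ± 0.11 in the other lines. The mitosis mean was 6.53 ± 0.08 in MCA-948, 6.39 ± 0.06 in MCA-972, 6.31 ± 0.12 in MCA-943, 6.19 ± 0.24 in MCA-969 and 5.89 ± 0.20 in MCA-970. MCA-943 therefore had the lowest S phase mean but the third highest mitosis mean. Its S phase values of 5.695 to 6.047 overlapped with those of MCA-970, at 5.699 to 6.143 around a mean of 5.895. Mitosis minus S phase was between 0.40 and 0.57 in the MCA-943 tumors, 0.24 and 0.44 in MCA-972, -0.02 and 0.32 in MCA-969, -0.10 and 0.15 in MCA-970 and -0.24 and 0.12 in MCA-948. Every MCA-943 tumor was above every tumor of MCA-948, MCA-969 and MCA-970, and overlapped only with MCA-972.

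**Figure D4:**
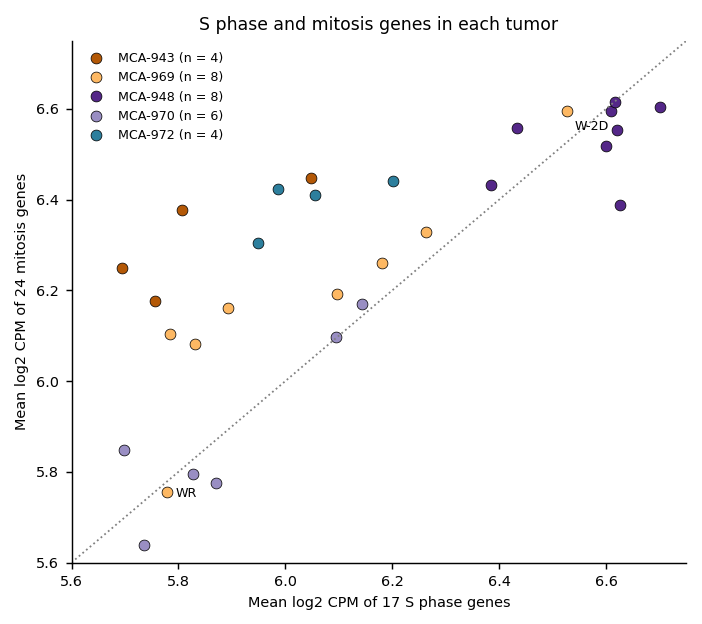
Mean log2 CPM of 24 mitosis genes (vertical axis) against that of 17 S phase genes (horizontal axis) in each of the 30 tumors, coloured by line; on the dotted line both are equal. All tumors of MCA-943 and MCA-972, and those of MCA-969 other than WR, lie above the dotted line, and MCA-948 and MCA-970 lie on both sides. MCA-948 is at the upper right, and MCA-969 spreads from WR at the lower left to W-2D.

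Within lines, MCA-969 varied most. Its tumors ran from 5.77 (WR) to 6.57 (W-2D) in the mean over all 41 genes, an SD of 0.24, against 0.08 in MCA-948 and in MCA-972, 0.13 in MCA-943 and 0.19 in MCA-970. W-2D had the highest value of its line for 29 of the 41 genes and WR the lowest for 26. MCA-970 had a similar spread, with a-2D highest for 30 genes and W-R lowest for 24. Among the MCA-969 tumors, endothelial markers summed to 83.3 CPM in W-2D and 199 CPM in WR, and leukocyte markers to 20.4 and 22.5 CPM. The mesenchymal markers summed to 9561 CPM in W-2D, the lowest of its line, and the skeletal muscle markers to 12.5 CPM, the highest. W-2D was in run 2, unlike WR, and the part of run or markers in its values was not tested. W-2D is 1 of the tumors whose label goes against the line and W-1D is the other, with an S phase mean of 5.83 and a mitosis mean of 6.08, near the low end of the line.

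The 10 pairs of lines were then compared, and each line enters 4 of them, so that the comparisons share tumors. MCA-948 against MCA-970 gave the most differences: 32 of the 41 genes were higher in MCA-948 and 1, Ube2c, was higher in MCA-970, with a median log2 fold change of 0.67. Over all genes, 69.9% passed, 33.2% were higher in MCA-948 and 36.7% in MCA-970, with a median of -0.05. At least 2-fold differences were found in 5 of the 41 genes and in 29.4% of all genes. The call of Ube2c (-0.31 on the log2 scale, adjusted p = 0.0429 by edgeR) was lost when any 1 of 12 tumors was left out (adjusted p between 0.0566 and 0.206), namely MCA-943 a-1D, a-1G or W-2G, MCA-948 a-2G, a-R, W-1G, W-2D or W-2G, MCA-969 a-2D, MCA-970 a-2D or a-2G, or MCA-972 a-1G. Within run 2, which held both lines, 26 genes were higher in MCA-948 and 0 in MCA-970, with a median of 0.47. For fits in a single run or with a covariate, the share of all genes was not computed. Changes in such counts therefore cannot be set against genes in general.

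MCA-948 was also above MCA-972 for 22 genes and below it for 4 (background 30.1% and 32.3% of all genes, 62.4% either way), with a median of 0.34. Of the 22, 14 were S phase genes, and the 4 that were lower were mitosis genes. The 4 became 2 without MCA-943 a-1G or MCA-972 2G and 1 without MCA-972 a-1 or a-1G. MCA-970 was below MCA-972 for 23 genes and above it for 1 (background 24.4% and 23.7%, 48.1% either way), and 18 of the 23 were mitosis genes. The 1 above was lost, or became 2 (MCA-969 W-2D), with single tumors of each line but MCA-948 left out. With the run as a covariate, 5 genes were higher in MCA-948 than in MCA-972, lines that shared no run. With the endothelial and leukocyte markers as covariates, 10 were lower in MCA-970 than in MCA-972.

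**Figure D5:**
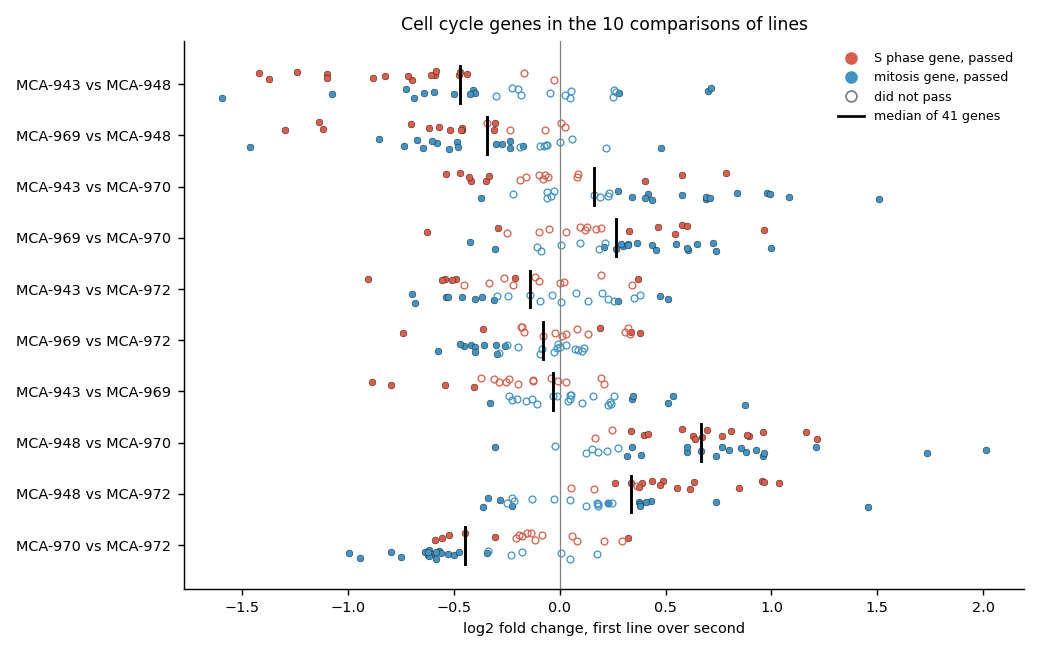
Log2 fold change, first line over second, of the 41 genes in each of the 10 comparisons (rows); filled points passed at an adjusted p under 0.05, open points did not, and black bars mark the median of the 41. The medians lie on the side of MCA-948 in each comparison that includes it and away from MCA-970 in each that includes that line, from -0.47 (MCA-943 against MCA-948) to 0.67 (MCA-948 against MCA-970).

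Of the comparisons between a non-sensitive and a sensitive line, MCA-943 was below MCA-948 for 25 genes and above it for 3 (background 31% and 33.6%, 64.6% either way), with a median of -0.47. In run 3, which held both lines, these counts were 31 and 5. MCA-969 was below MCA-948 for 27 genes and above it for 1, Birc5 (background 27.5% and 33.6%, 61.2% either way). The 27 became 11 once the run was a covariate, and with the 2 tumors of each line in run 2 they became 4, with a median of -0.12 in place of -0.34. The run 2 tumors of MCA-969 are W-1D and W-2D, so that run and label cannot be told apart there. Against MCA-970 the direction was the opposite: MCA-943 was higher for 17 genes and lower for 7 (background 31.1% and 29.7%, 60.8% either way), and MCA-969 was higher for 22 and lower for 4 (31.8% and 29.5%, 61.2% either way). MCA-943 exceeded MCA-970 for 14 mitosis genes and 3 S phase genes, and was below it for 6 S phase genes and 1 mitosis gene. The 7 lower genes became 1 without MCA-943 a-1D, 2 without MCA-943 W-2G or MCA-970 a-2D, and 4 without MCA-970 a-2G. Against MCA-972 fewer passed, 4 higher and 14 lower in MCA-943 (background 27.9% each way, 55.9% in all) and 3 higher and 12 lower in MCA-969 (28% and 25.8%, 53.8% either way). The 3 higher in MCA-969 became 5 without MCA-969 a-1G and 1 without MCA-943 a-1D or W-2G, MCA-969 a-1D, a-2D or W-2D, or MCA-972 a-1G or a-R.

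The endothelial markers were at 261 to 499 CPM in MCA-970, and the highest of any other tumor had 449 CPM. Much of this sum was Cdh5, with a mean of 236 CPM in MCA-970 and 27.3 to 49.1 CPM elsewhere. Pecam1, Kdr, Emcn and Cldn5 were also highest in MCA-970. Vwf was highest in MCA-969 (39.9 against 27.4 CPM in MCA-970) and Tek in MCA-972 (7.90 against 5.48 CPM). The sum followed MCA-970 closely, so that as a covariate it can be told apart from this line only in part. With the endothelial and leukocyte marker sums as covariates, MCA-943 was higher than MCA-970 for 8 genes in place of 17 and MCA-969 for 11 in place of 22, while MCA-948 was higher for 27 in place of 32. The 2 non-sensitive lines differed from each other in 5 genes each way (background 29.8% higher in MCA-943 and 31.9% in MCA-969, 61.8% either way), the fewest of any pair. Without W-1D and W-2D, 8 were higher in MCA-943 and 5 in MCA-969, and with the run as a covariate 1 and 8. Leaving out W-2D alone moved the first count to 8, and leaving out MCA-943 a-R moved it to 3.

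When each non-sensitive line was set against each sensitive line, in 6 comparisons, 0 of the 41 genes were higher and 2, Rrm2 and Ccna2, were lower in the non-sensitive line. Passing in 1 direction in all 6 was seen in 4.15% of all genes. For Rrm2 the log2 differences ran from -0.43 ± 0.17 (MCA-943 against MCA-970, adjusted p = 0.0269 by edgeR) to -1.30 ± 0.13 (MCA-969 against MCA-948), and the latter was -0.70 within run 2 (adjusted p = 0.0871). For Ccna2 they ran from -0.37 ± 0.15 (MCA-943 against MCA-972, adjusted p = 0.0401) to -0.65 ± 0.11 (MCA-969 against MCA-948). The count of 2 fell to 0 with the run, the animal code or the markers as a covariate, and to 0 without MCA-943 a-1D or W-2G or MCA-970 a-2D. It was 1 without MCA-943 a-1G, MCA-970 a-2G or MCA-972 2G or a-1G. Ccna2 overlaps Exosc9 on the other strand, and how strand was set in counting is not stated.

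Line means of the non-sensitive and sensitive lines did not overlap for 7 of the 41 genes, against 16.7% of all genes. These were Rrm2, Tyms, Ccne2 and Ccna2, lower in both non-sensitive lines, and Cdk1, Aurka and Birc5. Cdk1 and Birc5 were higher and Aurka lower in the non-sensitive lines, for Cdk1 by as little as 0.03 ± 0.16 on the log2 scale (MCA-943 over MCA-948, adjusted p = 0.894 by edgeR). Single tumors overlapped in every case, and tumors of the 2 classes were apart for 0 of the 41 genes and 1.28% of all. Passing in both directions among the 6 comparisons was seen in 17 genes, against 49.6% of all genes. Among the 17 was Mybl2, lower in each non-sensitive line than in MCA-948 and higher than in MCA-970. Ube2c passed in none.

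Libraries of MCA-948 were in runs 2 and 3. Both run 2 tumors were below all 6 run 3 tumors for 12 of the 41 genes, 8 of them mitosis genes, and above them for 2, Cenpa and Cdc20. Over all genes these shares were 14.2% and 17%. Top2a had 329 and 366.6 CPM in the run 2 tumors and 665 ± 45.8 CPM (SD, n = 6) in run 3, and Cenpf 39.4 and 47.2 against 76.6 ± 6.72 CPM. Mybl2, Rrm1 and E2f1, which set MCA-948 apart, differed less, with log2 differences of -0.23, -0.03 and 0.01 between the runs. The 12 genes had a median length of 4742 bases and the other 29 a median of 3402. Over all genes the share with both run 2 tumors below rose with length, with 6.02%, 9.61%, 15.7% and 25.5% in 4 equal bins from the shortest to the longest genes, and the part of length in this was not tested.

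Tumors with the letter W (12) were set against those with the letter a (14), with the line in the model, in the 4 lines with tumors of each letter. At an adjusted p under 0.05, 0 of the 41 genes passed by edgeR and 0 by DESeq2, against 0.272% of all 16557 genes tested. At an unadjusted p under 0.05 there was 1, Ccne2, against 7.35% of all genes. The log2 fold change of Ccne2, W over a, was -0.33 ± 0.11 (unadjusted p = 0.00546, adjusted p = 0.383 by edgeR), and its mean log2 CPM was lower in W in each of the 4 lines. By sign alone 39 of the 41 genes were lower in W, with a median of -0.06, where 53.3% of all genes were lower. This count was between 26 (without MCA-969 WR) and 40 when 1 tumor was left out. Letter and run were tied in part, since both run 2 tumors of MCA-948 carry the letter a and both of MCA-969 the letter W. With the run as a covariate, 0 genes passed and 39 were lower in W.

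By line the median difference of W minus a was -0.29 in MCA-970, -0.09 in MCA-969, 0.06 in MCA-948 and 0.02 in MCA-943, which has 1 W tumor. The mean log2 CPM of the 41 genes in MCA-970 was 5.68, 5.79 and 5.81 in the W tumors and 5.82, 6.10 and 6.16 in the a tumors, so that the sets did not overlap, with the nearest W and a tumors at 5.810 and 5.815. Leukocyte markers summed to 29.3, 180.9 and 292 CPM in these W tumors and to 29.1, 42.7 and 52.0 CPM in the a tumors. Endothelial markers summed to 261, 291 and 499 CPM and to 453, 483 and 489 CPM, and the part of either in the difference was not tested. A test of whether the letter's effect differed among the lines passed for 0 of the 41 genes, with a smallest adjusted p of 0.424 by edgeR, and for 3 of all genes.

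A further 127 cell cycle genes were listed by role, and all were tested. Of these, 120 differed among the lines, and the median span was 0.78, close to the 0.81 of the 41 genes. Among all genes tested, 94.1% differed and the median span was 1.15. MCA-948 was highest for 71 and MCA-970 lowest for 60. Among 37 genes of origins and replication, MCA-948 was highest for 32 and MCA-943 lowest for 17, and among 54 genes of mitosis and cytokinesis, MCA-948 was highest for 25, MCA-943 for 12, and MCA-970 lowest for 34. Over all genes MCA-943 was highest for 26.5% and lowest for 25.3%, MCA-948 highest for 22.7% and MCA-970 lowest for 19.1%. The 7 that did not pass were Rbl1, Gins3, Mad2l1, Nuf2, Spc25, Dlgap5 and Pbk. Pole, the catalytic subunit of a leading-strand polymerase, had 135 ± 25.5 CPM in MCA-948 and 36.9 ± 2.13 in MCA-943, and Pola1, of the priming polymerase, had 113 ± 29.4 CPM in MCA-948 and 33.9 ± 6.27 in MCA-970. Brca2, of recombination repair, was at 58.6 ± 13.99 CPM in MCA-948 and between 18.7 and 38.3 CPM elsewhere. E2f2 was highest in MCA-969 (6.45 ± 1.36 CPM) and lowest in MCA-970 (1.88 ± 0.40), and Spc24, of the outer kinetochore, was highest in MCA-943 (20.6 ± 3.83 CPM) and lowest in MCA-972 (6.71 ± 1.23).

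The CDK inhibitors had a median span of 1.58 over 7 genes, against 0.60 to 0.88 in the other 5 roles, with none of them highest in MCA-948. Cdkn2a, the locus of the Ink4a and Arf inhibitors, was at 5.42 to 30.02 CPM in the 4 MCA-943 tumors and between 349 and 678 CPM in every other tumor. Its neighbour Cdkn2b was at 0.78 to 3.97 CPM in MCA-943 and between 38.4 and 89.2 CPM in the other tumors. The log2 difference between MCA-943 and MCA-948 was -4.62 ± 0.33 for Cdkn2a and -4.43 ± 0.26 for Cdkn2b (edgeR adjusted p = 8.08e-13 and 1.13e-14). MCA-943 had the lowest S phase mean (5.83), near that of MCA-970 (5.895), and a link of this to the inhibitors was not tested. Cdkn1a, a target of p53, was highest in MCA-970 (65.8 ± 13.7 CPM) and MCA-969 (58.2 ± 25.1) and lowest in MCA-948 (22.4 ± 6.87) and MCA-972 (23.3 ± 10). Cdkn1c, an imprinted inhibitor, was highest in MCA-972 (271 ± 108 CPM) and lowest in MCA-948 (72.3 ± 22.3). Ccnd2, a D-type cyclin, was highest in MCA-969 (282 ± 75.6 CPM) and lowest in MCA-970 (94.0 ± 14.1).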

How the data were processed

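RNA of 30 tumors was sequenced, and the authors deposited raw counts per gene, 1 value per Ensembl gene and tumor. Per the labels and the study's methods, reads were aligned to GRCm38 with STAR and duplicates were removed by molecular identifier before counting with featureCounts. The annotation and the strand setting are not given in the sources used here. An unstranded count cannot assign reads of overlapping genes by strand, and whether such reads were added or left out is not stated. Of 48440 genes, 48058 were named through GENCODE M21. The table held no unused column of values.

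Counts were tested with edgeR 4.0.16 in R 4.3.3, with TMM normalization, genes kept by filterByExpr on the line, and a robust quasi-likelihood fit with the line as the only factor. One F-test covered the 5 lines and 10 contrasts the pairs of lines. The title letters were tested with the line as a covariate over 26 tumors. P-values were adjusted by Benjamini-Hochberg over all genes tested, with a threshold of 0.05, and at least 2-fold (1 on the log2 scale) was a second rule. Replicates were tumors of 1 line, so that p-values measure the spread between tumors. CPM were on the TMM scale, and log2 CPM used a prior count of 2. The scripts were tested on simulated counts first.

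The genes and lists were chosen with earlier results of these data known. Values in full were given for Mki67, Pcna, Mcm5, Ccne1, Ccnb1, Cdk1 and E2f1, for the 6 genes with the largest span of line means that passed the F-test and for the 3 with the smallest span. Of the other cell cycle genes, the 10 with the largest span were named. Rrm1, Cdt1, Ccna2, Cdc25b, Birc5, Top2a and the remaining genes were named to account for their role. Alternatives were DESeq2 1.42.0, its size factors in edgeR, no filter, the library run as a covariate, single runs, the animal code of the title as a block and each tumor left out in turn. The marker sums as covariates, and both MCA-969 tumors labelled against their line left out, were added after seeing the data.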

Additional observations from a re-analysis of the deposited data

Results flagged for a closer look

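Within a line of 4 to 8 tumors, 1 tumor stood far from the others for 20 of 205 combinations of gene and line, where chance gives about 1 in 20. Of these, 11 were the same tumor, MCA-969 W-2D, which is 1 of the tumors whose sensitivity label goes against its line. The flags of all other tumors together were no more than about 1 in 20 of the combinations. Values of several genes in 1 tumor are not independent of each other.

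W-2D was the highest of its line in all 11. It had 193.6 CPM of Cdk1 (the other 7 tumors had 80.2 to 107.3), 261 CPM of Pcna (104.7 to 149.9), 138 CPM of Cenpa (53.7 to 74.3), 98.0 CPM of Tyms (36.4 to 52.0) and 39.5 CPM of Gmnn (15.3 to 21.9). It also had 77.7 CPM of Rrm2 (32.6 to 52.7), 97.8 CPM of Ccnb2 (43.6 to 67.2), 59.1 CPM of Aurka (29.7 to 43.6), 80.2 CPM of Birc5 (34.9 to 50.3), 149.6 CPM of Cdc20 (69.6 to 104.5) and 122.3 CPM of Ube2c (57.4 to 85.0). A further MCA-969 tumor, WR, was low for Foxm1 at 44.4 CPM (61.7 to 69.1 in the others).

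The remaining 8 lay in the other lines. MCA-948 W-2G was high for Mcm6 at 336 CPM (230.6 to 268) and for E2f1 at 53.7 CPM (44.1 to 48.6). In MCA-972, a-1 was low for Ccne2 at 15.2 CPM (24.1 to 25.8) and high for Kif20a at 180.1 CPM (164 to 166), 2G was high for Cdk2 at 47.8 CPM (37.9 to 38.7), and a-R was low for Tpx2 at 146.7 CPM (160.0 to 161.6). In MCA-943, a-R was high for Cdk2 at 40.5 CPM (33.0 to 34.0), and a-1G was low for Bub1 at 49.1 CPM (53.8 to 54.7).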

How the results depend on the processing

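The number of genes that differed among the 5 lines was 40 with the run as a covariate and 36 with the marker sums, and 38 to 40 when 1 tumor was left out. DESeq2 moved no count of genes by more than 1.5 times. Values of single genes, medians and counts by sign were compared with the main fit. Of these, 1128 stayed the same, 27 fell short of the threshold, 3 medians moved and none turned direction. For single genes, the same meant an unchanged direction and side of the threshold. For counts by sign it meant a change within 1.5 times, and for medians a small shift. Most of these fits left out only 1 tumor. The median log2 fold change of the 41 genes moved within run 2 for each of the 3 pairs of lines there, to 0.47 for MCA-948 over MCA-970, -0.12 for MCA-969 over MCA-948 and 0.47 for MCA-969 over MCA-970. The causes of these changes were not tested. Shares of all genes were computed for the main fit only, so the counts below have no background beside them.

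Counts that moved were, with DESeq2's size factors, 1 higher in MCA-969 than in MCA-972, and with no filter, 1 gene lower in all 6 comparisons and 1 higher in MCA-972 than in MCA-948. With the animal code as a replicate block, 0 were lower in all 6, 5 were higher in MCA-943 than in MCA-948, 3 in MCA-970 than in MCA-943, 0 in MCA-970 than in MCA-948, 2 in MCA-972 than in MCA-948 and 0 in MCA-970 than in MCA-972. Tumors of different lines with the same code did not deviate together (62 pairs, median correlation over genes 0.012, 19 over 0.1), so that the codes were not taken as pairs.

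With the run as a covariate, 0 were lower in all 6. The counts were 1 higher in MCA-943 and 8 in MCA-969 between these lines, 8 higher in MCA-943 than in MCA-970, 0 in MCA-943 than in MCA-972, 0 in MCA-970 than in MCA-948, 5 in MCA-948 than in MCA-972, 11 in MCA-948 and 2 in MCA-969 between these lines, 1 in MCA-970 than in MCA-969, 1 in MCA-969 than in MCA-972 and 0 in MCA-970 than in MCA-972. Within run 2, 0 were higher in MCA-970 than in MCA-948, 4 in MCA-948 than in MCA-969 and 0 in MCA-970 than in MCA-969, and within run 3, 5 in MCA-943 than in MCA-948.

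Of the alternatives added after seeing the data, the marker sums left 0 lower in all 6, 8 higher in MCA-943 and 4 in MCA-970 between these lines, 0 in MCA-970 than in MCA-948, 2 in MCA-972 than in MCA-948, 11 in MCA-969 than in MCA-970 and 10 in MCA-972 than in MCA-970. Without both MCA-969 tumors labelled against their line, 8 were higher in MCA-943 than in MCA-969 and 2 in MCA-970 than in MCA-972.

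With 1 tumor left out, the genes lower in all 6 numbered 0 to 3. The ranges, first line then second, were 2 to 4 and 24 to 26 for MCA-943 against MCA-948, 3 to 8 and 5 to 7 against MCA-969, 15 to 18 and 1 to 7 against MCA-970, and 3 to 5 and 10 to 15 against MCA-972. They were 31 to 34 and 0 to 1 for MCA-948 against MCA-970, 17 to 23 and 1 to 6 for MCA-948 against MCA-972, 1 to 1 and 22 to 30 for MCA-969 against MCA-948, 19 to 24 and 3 to 6 for MCA-969 against MCA-970, 1 to 5 and 10 to 15 for MCA-969 against MCA-972, and 0 to 2 and 20 to 25 for MCA-970 against MCA-972. Between the letters the count stayed at 0.

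Depth did not limit the genes, since no tumor had fewer than 312 counts of any of them. The runs and the lines overlapped only in part, the letters have no stated meaning, and 5 lines cannot give an exact p under 0.1 for sensitivity.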
